A study of Sus scrofa with 4 samples.

Results

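The IL12, IL18 and interferon gamma axis was followed through 8 genes in thymus from IL2RG KO and wildtype (WT) pigs: IL12A, IL12B, IL18, IL12RB1, IFNG, IFNGR2, CXCL9 and CXCL10. Every array probe whose RefSeq accession belonged to one of these pig genes was taken, which gave 10 probes of the 43603 on the array and 8 of the 3020 genes that could be named. IL18 and CXCL10 had 2 probes each and the other genes had 1.

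Thymus RNA was hybridised to 4 Agilent porcine oligonucleotide arrays, with 1 dye and 1 sample per array. The KO group (n = 2) was labelled IL2RG+/- and the WT group (n = 2) wildtype, and all samples came from Minnesota miniature swine. IL2RG encodes the receptor chain shared by IL2, IL4, IL7, IL9, IL15 and IL21. The KO pigs were cloned by somatic cell nuclear transfer from cell colonies cut with TALENs in exon 2 of IL2RG, and only KO pigs that had kept a small thymus could be sampled, so the KO arrays describe a rudimentary organ. The labels give neither the age of the pigs nor the cell colony behind each clone, and they number the samples of a group as replicates without naming the animal. The study describes its KO arrays as made from the 2 KO pigs with a thymus, but does not tie each label to a pig. P-values therefore rest on the spread between these samples, which the main test pools in part over probes.

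IL12 is a secreted cytokine made of the subunits IL12A (p35) and IL12B (p40), and it is released mainly by macrophages and dendritic cells. It acts on T cells and NK cells through a receptor of IL12RB1 and IL12RB2. IL18, which the protease CASP1 activates from a precursor, acts on the same cells through IL18R1 and IL18RAP, and together both cytokines are known as strong inducers of IFNG. Interferon gamma binds IFNGR1 and IFNGR2, signals through JAK1 and JAK2, and induces the chemokines CXCL9 and CXCL10, which attract T cells and NK cells. In the thymus, thymocytes make up most of the cells, and macrophages and dendritic cells take up dying cells and present antigen.

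The study measured IFNG separately by RT-qPCR, and its primers are shown because they are the designed sequences of an axis gene that the study lists. They are not the array probe, and no RT-qPCR value was used. Both are written 5′ to 3′.
IFNG forward primer: taaccaggccattcaaagga
IFNG reverse primer: ttcagtttcccagagctacca

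Signals are given as normalized log2 signal, on which 0 is the 75th percentile of the array and 1 unit is a 2-fold difference. Brightness depends on the probe, so levels are compared between arrays for the same probe and never between probes. A gene was called higher or lower in KO when limma gave a Benjamini-Hochberg adjusted p under 0.05 over all 31959 probes tested and the difference was at least 2-fold. With 2 arrays per genotype no exact permutation test of 1 gene can go below a two-sided p of 0.333, and limma's p-values rest on a spread pooled over probes. On the IL2RG probe with the higher signal, the KO arrays read -3.15 and -3.29 and the WT arrays -0.13 and 0.52. The difference was -3.41 (SE 0.27, limma adjusted p = 0.00256), and the second IL2RG probe was lower in KO by a log2 difference of -4.38 (SE 0.26).

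All 10 axis probes were well above background on all 4 arrays, and all were tested. Of the 8 genes, 6 were called higher in KO (IL12A, IL18, IFNG, IFNGR2, CXCL9 and CXCL10), 1 was called lower (IL12RB1) and 1 was not called (IL12B). Over all probes tested, 21.0% were called higher and 13.0% lower, and over the 2700 named genes tested, each by its brightest probe, 25.1% and 12.6%. The median log2 difference of the 8 genes, which were chosen with earlier results of these data known, was 2.14. It was -0.06 over all probes tested and -0.003 over the named genes tested, each by its brightest probe. The KO and WT values of none of the 10 probes overlapped, which was also the case for 78.7% of all probes tested.

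**Figure D1:**
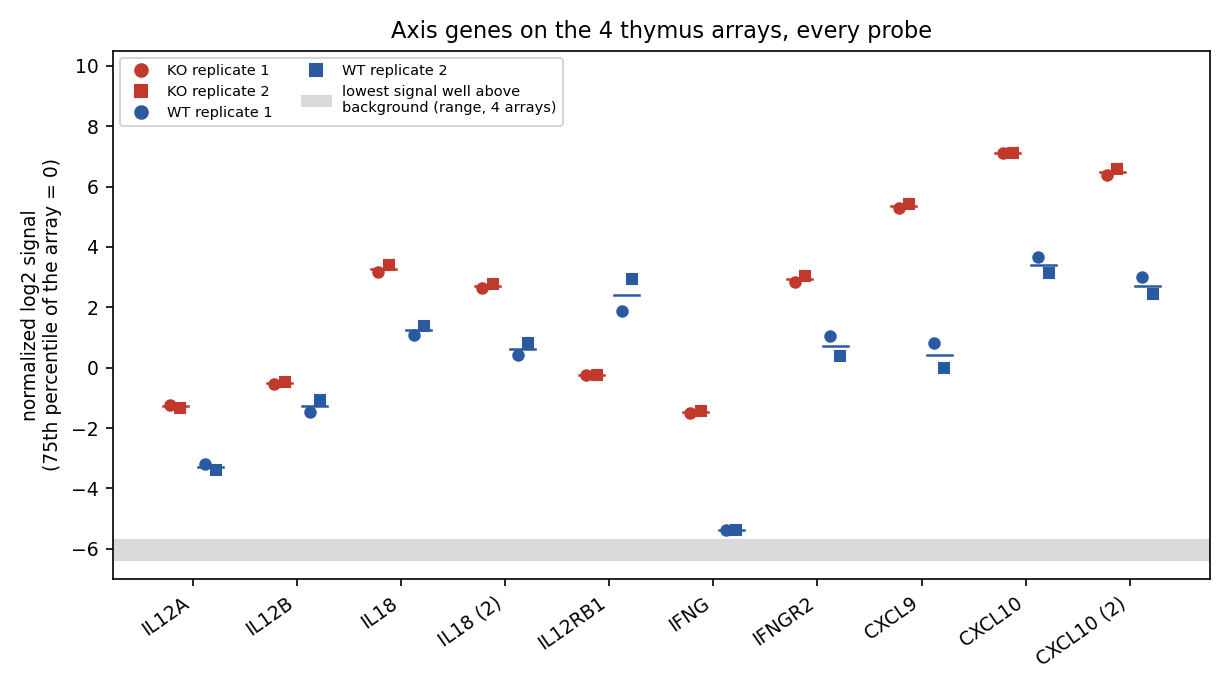
Normalized log2 signal (0 is the 75th percentile of the array) of each probe of the 8 axis genes on the 2 KO and 2 WT arrays; circles are replicate 1, squares replicate 2, short lines the group means, and "(2)" a gene's second probe. The grey band spans, over the 4 arrays, the lowest signal marked as well above background; the WT points of IFNG lie just above it, and IL12RB1 alone lies lower in KO than in WT.

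Both genes that encode subunits of IL12 had larger values in KO, and the rise passed the test for IL12A alone. IL12A read -1.24 and -1.32 in KO and -3.20 and -3.38 in WT. Both KO arrays stood clearly over both WT arrays, and the arrays of a genotype lay close together. The difference was 2.01 (SE 0.16, 95% interval 1.58 to 2.45), a 4.03-fold rise (limma adjusted p = 0.00265). The signal behind it was low, with 324 and 278 raw units on the KO arrays beside 67.6 and 66.8 on the WT arrays, and with the normexp background correction the difference was 1.31 (adjusted p = 0.00129), still called.

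IL12B, the subunit that IL12 shares with IL23, read -0.54 and -0.47 in KO and -1.48 and -1.08 in WT. The groups did not overlap, but the gap between the lowest KO and the highest WT array was 0.54, not much over the 0.40 that separated the WT arrays. The difference of 0.77 (SE 0.20, 95% interval 0.23 to 1.32) was 1.71-fold with a limma adjusted p of 0.0365, short of the 2-fold limit. The adjusted p was 0.107 after scaling to the array median and 0.0715 with a replicate block.

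IL18 rose on both of its probes. On the brighter probe it read 3.17 and 3.40 in KO and 1.07 and 1.39 in WT, and on the other 2.65 and 2.79 in KO and 0.44 and 0.81 in WT. KO replicate 2 and WT replicate 2 were the higher arrays of their genotype on both probes. The differences were 2.05 (SE 0.20, 95% interval 1.52 to 2.58, 4.14-fold, limma adjusted p = 0.0036) and 2.09 (SE 0.20, 4.26-fold).

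IL12RB1, the receptor chain through which T cells and NK cells bind the p40 subunit, fell. Its values were -0.23 and -0.23 in KO and 1.87 and 2.94 in WT. The KO arrays were equal to the second decimal and the WT arrays differed by 1.07, the widest gap within a genotype among the 10 probes. The difference was -2.64 (SE 0.39, 95% interval -3.69 to -1.60), which is 6.25-fold lower in KO (limma adjusted p = 0.00863), and 2.22% of all probes tested had a more negative difference. The fall was -3.18 on slide 1, which held KO replicate 1 and WT replicate 2, and -2.11 on slide 2, which held the other pair.

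IFNG was 15.0-fold higher in KO. It read -1.50 and -1.43 in KO and -5.37 and -5.38 in WT, and the arrays of a genotype differed by 0.07 at most. The difference was 3.91 (SE 0.15, 95% interval 3.51 to 4.31, limma adjusted p = 0.00205), with 3.88 on slide 1 and 3.94 on slide 2, and 1.06% of all probes tested had a larger one. In raw units the KO arrays read 269 and 258 and the WT arrays 15.0 and 16.7, beside a lowest signal marked as well above background of 11.8 and 11.5 on these WT arrays. With the normexp background correction the difference was 1.70 (limma adjusted p = 0.000445), still called.

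IFNGR2, the signal-transducing chain of the interferon gamma receptor, read 2.85 and 3.04 in KO and 1.05 and 0.39 in WT. The KO arrays were both higher, and WT replicate 1 lay closer to them than WT replicate 2. The difference was 2.23 (SE 0.28, 95% interval 1.49 to 2.97), a 4.68-fold rise (limma adjusted p = 0.00587). In the pig gene table (Sscrofa11.1), IFNGR2 lies next to IFNAR1, a chain of the receptor for type I interferons.

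CXCL9 rose the most of the axis genes. It read 5.30 and 5.44 in KO, against 0.83 and -0.02 in WT, and the difference was 4.96 (SE 0.33, 95% interval 4.09 to 5.84), 31.2-fold (limma adjusted p = 0.00214), and 0.166% of all probes tested had a larger one. The KO arrays were far higher than either WT array, although the WT arrays differed from each other by 0.85. CXCL10, its neighbour in the gene table with ART3 between them, read 7.10 and 7.12 in KO and 3.68 and 3.14 in WT on the brighter probe. Its difference was 3.70 (SE 0.23, 95% interval 3.07 to 4.33), 13.0-fold (limma adjusted p = 0.00209), and the second probe gave 3.75 (SE 0.25, 13.5-fold). WT replicate 1 exceeded WT replicate 2 for CXCL9, for both CXCL10 probes and for IFNGR2, and the reverse held for IL12RB1, IL18 and IL12B.

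**Figure D2:**
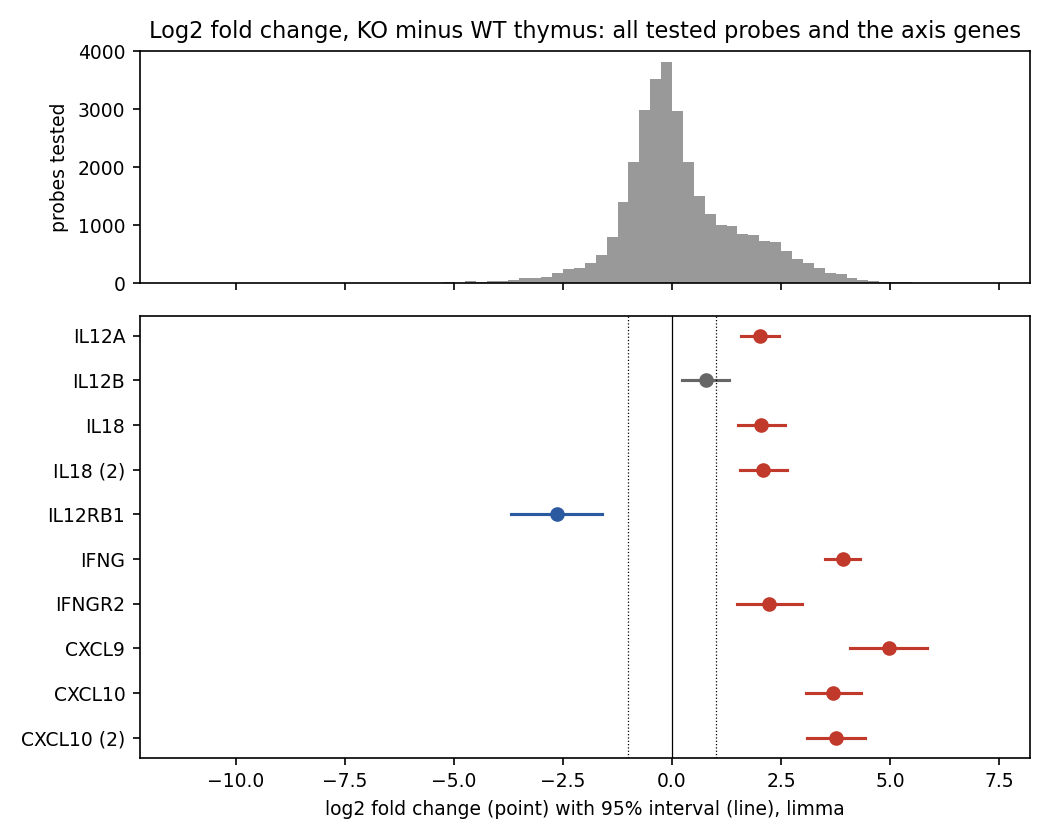
Upper panel: number of tested probes by log2 fold change, KO minus WT, in bins of 0.25. Lower panel: the log2 fold change of each axis probe with its 95% interval, red where called higher in KO, blue where called lower and grey where not called; dotted lines mark 2-fold. CXCL9 at 4.96, IFNG at 3.91 and CXCL10 at 3.70 lie in the right tail of all probes and IL12RB1 at -2.64 in the left.

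The spread between the arrays of a genotype was larger in WT for most of the axis. Over all probes tested, the median difference between the arrays of a genotype, without its sign, was 0.160 in KO and 0.298 in WT. Among the axis probes IFNG was nearly equal in both WT samples, while IL12RB1, CXCL9 and IFNGR2 differed between them by 1.07, -0.85 and -0.67 (WT replicate 2 minus replicate 1). The same genes differed by 0.00, 0.14 and 0.18 between the KO arrays.

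Among the partners of IL12 and IL18, CASP1 and IL27 rose and IL18R1 fell. Of the 15 genes listed, 9 had a named probe and 8 were tested, of which 2 were called higher in KO, 1 lower and 5 not, close to the 25.1% and 12.6% of all named genes, with a median log2 difference of 0.33. CASP1, the protease that matures IL18, read 1.13 and 1.53 in KO, against -0.45 and -1.52 in WT, and rose by 2.31 (SE 0.41, limma adjusted p = 0.0138). IL27, a cytokine subunit of the IL12 family, rose by 1.93 (SE 0.36, limma adjusted p = 0.015), and by 1.34 with the normexp background correction. IL18R1, the chain that binds IL18, read -3.96 and -3.65 in KO and -1.60 and -0.96 in WT, and it fell by 2.52 (SE 0.28, limma adjusted p = 0.00467), with both of its probes called lower. Its KO signal was low, with 49.1 and 55.4 raw units, and with the normexp background correction its difference was -1.63, still called. IL18 and IL18R1 thus differed between the genotypes in opposite directions, as did IL12A and IL12RB1.

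IL12RB2, the signalling chain of the IL12 receptor, had a difference of -1.10 (SE 0.35, limma adjusted p = 0.0613) and was not called, although it was called lower by quantile normalization, median scaling, the deposited log2 values and the replicate block. STAT4, the transcription factor activated by the IL12 receptor, stood at 0.46 (limma adjusted p = 0.075). Its groups did not overlap, nor did those of 78.7% of all probes tested. MYD88, an adaptor of the IL18 receptor, had a difference of 0.21 and the kinase TYK2 one of -0.09. IL23A, a subunit of IL23, was not well above background in WT and was not called (limma adjusted p = 0.0954). Its KO mean was 1.25-fold over the floor used for dim signals, and its difference was -0.07 with the normexp background correction. IL23R did not pass the filter on dim probes. EBI3, IL27RA, IL18RAP, IL18BP, TBX21 and EOMES had no named probe. Without KO replicate 1 the call of IL27 was lost (limma adjusted p = 0.0625), and without KO replicate 2 those of IL27 (0.0751) and CASP1 (0.0678).

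Of 8 genes for the interferon gamma receptor and its signalling, 5 were tested and 1 was called higher, beside 25.1% of all named genes, while SOCS1, IRF8 and CXCR3 had no named probe. IRF1, a transcription factor that interferon gamma induces, read 4.50 and 4.48 in KO and 2.99 and 2.59 in WT. It rose by 1.70 (SE 0.20, limma adjusted p = 0.00532), on both of its probes. IFNGR1, the ligand-binding partner of IFNGR2, had a difference of 0.77 (adjusted p = 0.0716), and none of its 4 probes was called. JAK2 stood at 0.71, SOCS3 at 0.61 and JAK1 at -0.59 (limma adjusted p = 0.042), under the 2-fold limit. JAK2 was called higher without WT replicate 1 (1.11, limma adjusted p = 0.00899) and IFNGR1 without WT replicate 2 (1.09, limma adjusted p = 0.012).

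Most of the tested genes known to be induced by interferon gamma were called higher in KO. Of 25 listed, 19 were tested, 15 were called higher, 0 lower and 4 not called, beside 25.1% of named genes called higher and 12.6% lower, and the median difference was 1.81. The highest was CXCL11, the third ligand of the receptor CXCR3 and the neighbour of CXCL10 in the gene table, at 3.11 (SE 0.23). It was followed by CD274 (PD-L1, a checkpoint ligand) at 2.85 (SE 0.24), FCGR1A (a high affinity Fc receptor) at 2.71 (SE 0.42), UBD (a ubiquitin-like protein) at 2.66 (SE 0.16) and SERPING1 (the C1 inhibitor) at 2.52 (SE 0.41). With the normexp background correction these genes stood, in the same order from CXCL11, at 2.56, 2.59, 1.53, 2.62 and 2.53, all still called.

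CXCL11 read 0.65 and 0.85 in KO and -2.12 and -2.60 in WT. As with CXCL9 and CXCL10, WT replicate 1 was the higher WT array. The genes not called were NOS2 at 0.04, TAP2 at 0.34, PSMB8 at 0.36 and B2M at 0.76 (limma adjusted p = 0.0307), which was under 2-fold. The other inducible subunits of the immunoproteasome, PSMB9 at 1.37 (SE 0.20) and PSMB10 at 1.18 (SE 0.18), were called, PSMB10 not after median scaling (0.92), and their difference from PSMB8 was not tested. The 15 calls became 10 without KO replicate 1, where GBP2, PSMB9, PSMB10, TAP1 and IFI30 were lost, and 8 without KO replicate 2, where SERPING1 and SLA-DRA were lost as well. Several of these genes also respond to type I interferons. Of the cell type markers below, 10 of 11 tested for macrophages and 6 of 6 for fibroblasts and endothelium were called higher too. The part of cell composition in the differences of the interferon gamma-induced genes was not tested.

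**Figure D3:**
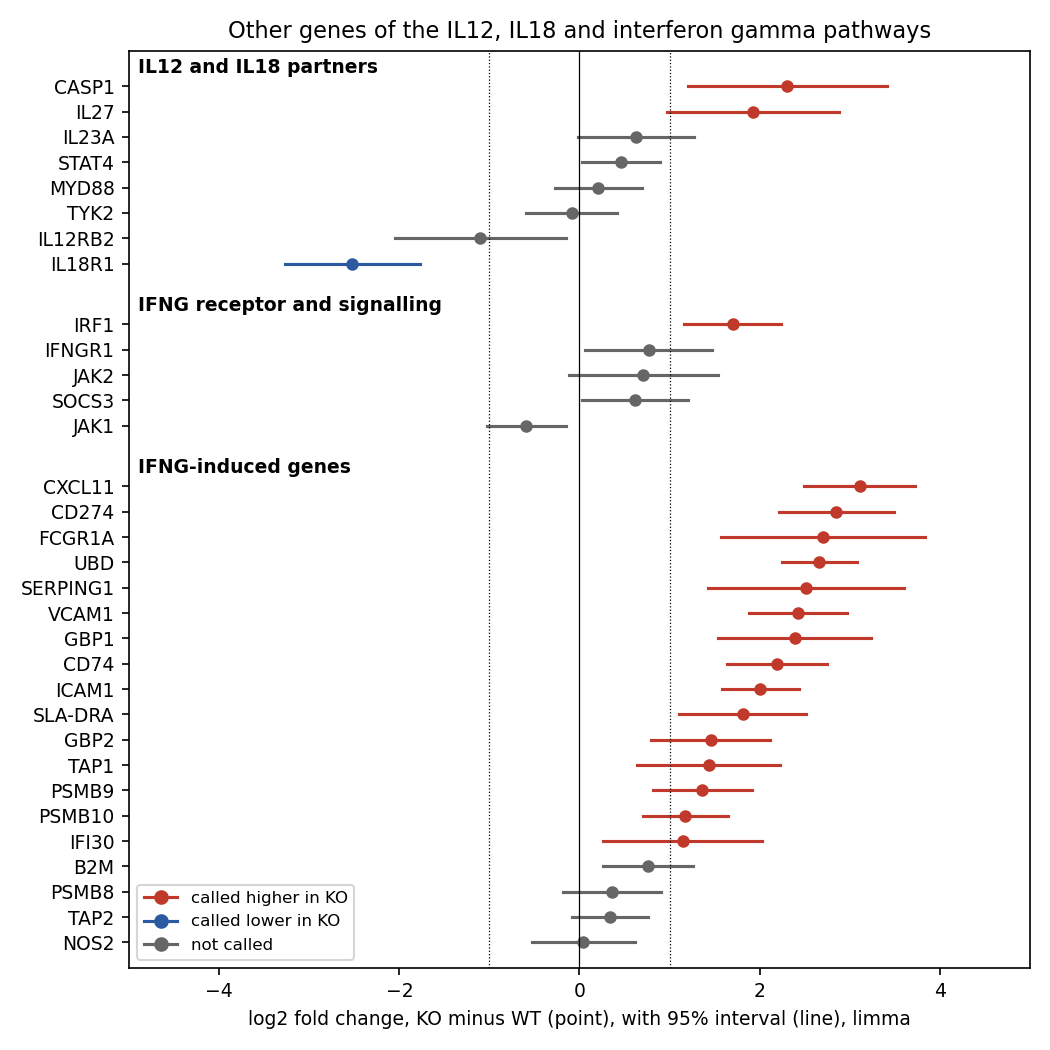
Log2 fold change, KO minus WT, with its 95% interval, of the tested genes of the 3 lists of pathway genes, each by its brightest probe; colours give the call and dotted lines mark 2-fold. In the list of interferon gamma-induced genes 15 of 19 points are called higher, from CXCL11 at 3.11 to IFI30 at 1.15, while IL18R1 at -2.52 is the gene called lower among the partners of IL12 and IL18.

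Markers of cell types differed widely between the genotypes, and fewer cells of a type and less RNA per cell cannot be told apart in bulk tissue. The counts of each list stand beside 25.1% of named genes tested that were called higher in KO and 12.6% called lower. All 15 tested thymocyte markers were lower in KO, among them PTCRA at -7.74 (SE 0.52), RAG1 at -7.68 (SE 0.56) and CCR9 at -4.77 (SE 0.26). RAG2 measured -7.76 (SE 0.68), which includes a KO array on which it was not well above background. The KO signal was also low for PTCRA (39.8 and 13.4 raw units) and RAG1 (100 and 30.7). The summed linear signal of the 15 markers, in units of the 75th percentile of the array, came to 46.6 and 44.7 on the KO arrays and to 325 and 438 on the WT arrays. Of 11 tested macrophage markers, 10 were higher in KO (MRC1 3.05, LYZ 2.77, C1QA 2.39, C1QB 2.35), with summed signals of 298 and 368 in KO and 77.7 and 59.1 in WT. The other, SIRPA, stood at 0.76 (limma adjusted p = 0.0372).

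Of 5 tested dendritic cell markers, 4 were higher (CD80 2.25, SLA-DQA1 1.63, CD86 1.27, XCR1 1.13), with sums of 290 and 316 in KO and 127 and 80.6 in WT. SLA-DQA1, an MHC class II gene that other antigen-presenting cells express too, made up 90.8% to 96.7% of that sum, and the other markers summed to 11.8 and 10.4 in KO and 6.52 and 7.42 in WT. All 6 fibroblast and endothelial markers were higher (LUM 2.73, CDH5 2.32, VWF 2.23, DCN 1.79), with sums of 132 and 193 against 68.4 and 30.3, and of 33.5 and 42.4 against 13.6 and 7.66 without DCN, the brightest. Among 4 thymic epithelial markers KRT8 was higher (2.37), while EPCAM (0.37), CCL25 (0.48) and DLL4 (0.70) were not called, and the sums were 259 and 241 against 96.4 and 68.1, or 63.5 and 54.9 against 46.2 and 41.0 without KRT8. FOXN1, PSMB11, AIRE, KRT5, KRT14 and KRT18 had no named probe, so the thymic epithelium was seen through few defining markers.

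The lymphocyte lists were mixed. Of 7 tested NK and cytotoxic lymphocyte markers, 5 were higher (among them GZMA 4.46, KLRK1 2.52 and XCL1 1.39) and 1 lower (CD8A -2.50, which thymocytes also express). The other, GZMB, had a difference of -0.76 and was not called (limma adjusted p = 0.112). It read 1.22 and 0.90 in KO and 1.44 and 2.20 in WT. GZMA, a granule protease, read -1.32 and -1.35 in KO and -5.54 and -6.04 in WT, where it was well above background on 1 of 2 arrays. The summed NK and cytotoxic signal came to 27.9 and 26.3 on the KO arrays and to 34.8 and 57.7 on the WT arrays, and its direction turned without CD8A, with 21.5 and 20.7 in KO and 9.68 and 11.7 in WT. NCR1, a defining NK receptor, was not well above background on either KO array and was on 1 of 2 WT arrays. Of 3 B cell markers, CD79A (-3.47) and MS4A1 (-3.45, well above background on 1 of 2 KO arrays) were lower and BLNK was higher (1.43), with sums of 3.32 and 3.95 against 2.86 and 1.98. BLNK carried the B cell sum in KO, and without it the sums were 0.105 and 0.0883 in KO against 1.13 and 1.00 in WT.

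No listed marker with a named probe was below background on every array. Without KO replicate 1 or KO replicate 2 fewer of these lists were called higher, with 9 and 8 macrophage markers, 2 and 2 NK and cytotoxic markers, 1 and 1 dendritic cell markers, 2 and 2 fibroblast and endothelial markers and 0 and 0 B cell markers. The thymocyte count was 15 and 14. With all 4 arrays, IL12A, IL18, IFNG, IFNGR2, CXCL9 and CXCL10 were called higher in KO, and IL12RB1 lower. Most tested macrophage, dendritic cell, fibroblast and endothelial, and NK and cytotoxic markers were also higher in KO, and the thymocyte markers lower. With 2 arrays per genotype these shared directions restate the calls and tie no axis gene to a cell type. Within WT, CXCL9, CXCL10, IFNGR2 and IL12A were higher in replicate 1, and IL12RB1, IL18 and IL12B in replicate 2. The macrophage, dendritic cell, fibroblast and endothelial, thymic epithelial and B cell sums were higher in WT replicate 1. The thymocyte sum and the NK and cytotoxic sum were higher in WT replicate 2. Within KO, IL18, IL12B, IFNG, IFNGR2, CXCL9 and CXCL10 were higher in replicate 2, and IL12A in replicate 1. The macrophage, dendritic cell, fibroblast and endothelial, and B cell sums were higher in KO replicate 2. The thymocyte, thymic epithelial, and NK and cytotoxic sums were higher in KO replicate 1. Each of these is a difference between 2 arrays. The part of cell composition in the differences of the axis genes was not tested.

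**Figure D4:**
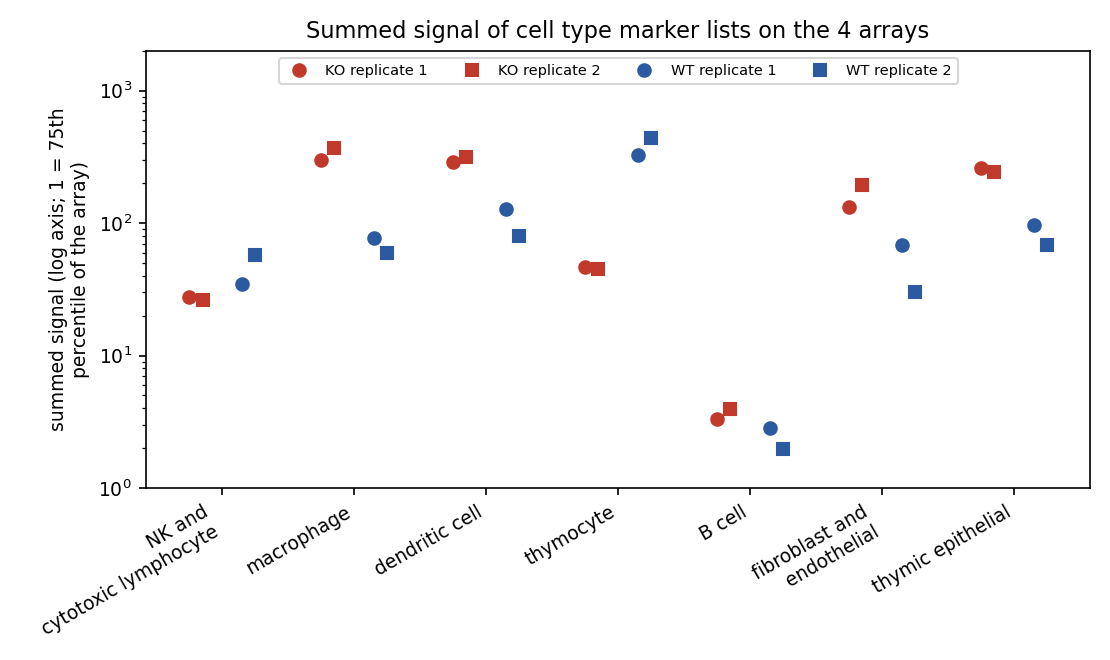
Summed linear signal of each list of cell type markers on the 4 arrays, on a log axis, where 1 is the 75th percentile of the array; circles are replicate 1 and squares replicate 2. The thymocyte sums (46.6 and 44.7 in KO, 325 and 438 in WT) are lower in KO and the macrophage sums (298 and 368 in KO, 77.7 and 59.1 in WT) are higher.

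The genes closest in pattern to IFNG and IL12RB1 were sought among 2692 named genes, by the root mean square difference over the 4 arrays after each gene was centred on its own mean. The nearest to IFNG among genes well above background on all 4 arrays were BMP5 (0.138), CHMP4C (0.139), MCT7 (0.147) and MUL1 (0.152). FASLG, a death ligand of T cells and NK cells, came nearer as measured (0.118), but it was not well above background in WT, and with its WT values at the floor of the array its distance was 0.371. It read -2.70 and -2.58 in KO and was at least 9.06-fold higher there (limma adjusted p = 0.00205). The nearest to IL12RB1 were ST6GALNAC4 (0.0737), the T cell coreceptor CD4 (0.0887), DMBT1 (0.117), CD8A (0.121) and the T cell kinase LCK (0.138). CD4 read -1.85 and -1.67 in KO and 0.38 and 1.29 in WT, with WT replicate 2 the higher array as for IL12RB1. With 4 arrays many genes share such a pattern, and, as measured, 55 genes lay within 0.5 of IFNG and 77 within 0.5 of IL12RB1.

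The 7 calls among the axis genes held for the same genes under every alternative run with limma, including each array left out in turn. The methods' t-test, which does not pool the spread over probes, called IFNG and IL12A after Benjamini-Hochberg adjustment and none with the Bonferroni correction, as it did for all probes tested, and without adjustment it called the same 7.

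**Figure D5:**
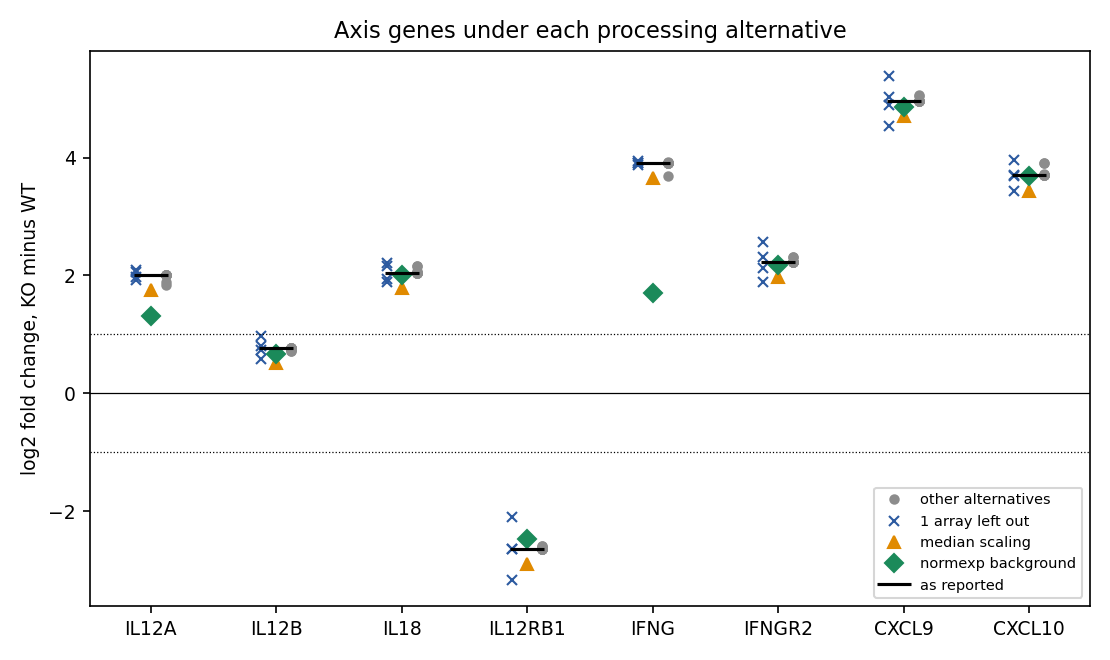
Log2 fold change, KO minus WT, of each axis gene as reported (black bar) and under the processing alternatives, with dotted lines at 2-fold. No gene changes sign, and the widest departure is that of IFNG with the normexp background correction, 1.70 against 3.91.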

How the data were processed

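The authors deposited the scanner intensity of each spot from Agilent Feature Extraction 11.0.1.1 (named in the submitters' processing notes), with background subtracted and no normalization between arrays. They also deposited a table of log2 values, whose median over the probes with values on all arrays was 8.49 on each array. Here control spots and outlier spots were left out (6 probes lost), the log2 of the processed signal was taken relative to the array's 75th percentile, and repeated spots were averaged per probe. The test covered the 31959 probes that both arrays of a genotype, or of both, marked as well above background, fitted with lmFit and eBayes of limma 3.58.1 in R 4.3.3. Genes were named through RefSeq accessions (Sscrofa11.1 table, names and neighbours only) and represented by their brightest probe. Where neither array of a genotype was well above background, "at least N-fold" sets the other mean against a floor, averaged over the arrays, of the larger of the probe's signal and the dimmest signal marked as well above background. The arrays had 67.9% to 74.5% of probes well above background and 0 saturated spots, and the number of arrays limits the precision.

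The members and lists were chosen with earlier results of these data known. All members and IL2RG were named. All called genes of the shorter pathway lists, the 5 highest of the interferon gamma-induced list, and up to 4 markers per list by size of change were named by rule; other listed genes were named after their values were seen. The fit was tested on simulated data. Alternatives were quantile normalization, median scaling, normexp (offset 50, on the median spot intensity), the deposited log2 values, other filters, slide or replicate number as a block, an intensity trend, the mean of all probes of a gene, the methods' t-test and each array left out. The methods mention a second dye, which neither labels nor files hold, so genotypes were compared between arrays. The result of 1 listed gene is not reported here, and its list was summed and counted without it.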

Additional observations from a re-analysis of the deposited data

How the results depend on the processing

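The 6 higher and 1 lower calls among the axis genes, and the 9 called probes, were kept under all alternatives run with limma. With the methods' t-test and the Bonferroni correction 0 genes were called higher, 0 lower and 0 probes, and with Benjamini-Hochberg adjustment 2 higher (IFNG and IL12A), 0 lower and 2 probes; the same test unadjusted, chosen after seeing the data, called 6, 1 and 9. The IL2RG difference of -3.41 was then not called with either correction (adjusted p = 1 and 0.0615), and over all alternatives it ranged from -3.90 to -2.64. Median scaling moved the median of all probes from -0.06 to -0.32 and the split of calls from 6713 higher and 4169 lower to 5811 and 6333, and relative to it the axis genes kept their calls; it left 13 interferon gamma-induced genes called. Normexp gave 3913 and 2697 calls, the deposited values 4639 and 3886, leaving out KO replicate 1 or KO replicate 2 4236 and 2078 or 4086 and 1983.

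Equal replicate numbers did not deviate together (r = -0.29 over probes between KO replicate 1 minus 2 and WT replicate 1 minus 2). The replicate block gave 6627 and 4031 calls over all probes, changed no call among the axis genes, and added IL12RB2 (-1.10, limma adjusted p = 0.0307) and lost IFI30. The crossed pairing is the slide, and as a block it gave 6896 and 4240 calls with the same 7 axis calls. Alternatives on the pathway lists, the marker sums without the brightest gene and the floor in the search for like patterns were chosen after seeing the data. Signal over background limits IFNG in WT most.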
